A study of Rattus norvegicus with 12 samples.

Results

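The genes described here are 36 genes of the cell division cycle, 10 that copy DNA or supply its building blocks and 26 that act from the end of DNA copying through mitosis and the separation of daughter cells. They were chosen by name, with earlier results of these data known, so their counts are not independent of the data. A gene was read from probe sets annotated with its symbol alone, taking for each gene the probe set with the highest mean over 12 arrays. Of the 36 genes, 34 had such a probe set, out of 14217 genes measured in all. Rrm2 of the replication genes and Tpx2 of the mitosis genes had none with only their own symbol. The samples were total RNA of rat knee articular cartilage, hybridized with a biotin label to 1-colour Affymetrix arrays. Rats had surgery that induces osteoarthritis (OA) or a sham operation as control, and cartilage was taken 2 or 8 weeks later, which gives 4 groups of 3 arrays. The labels refer to an earlier publication for the operation, and strain and age of the rats are not given in the sources used here. No label says whether the 3 arrays of a group came from separate animals, so every p-value measures only the spread between these samples, which may be technical. Values are log2 signals, and the number of arrays limits their precision.

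As background, a cell that enters the cycle first loads the MCM ring, a helicase of the subunits Mcm2 to Mcm7, onto its DNA. The sliding clamp Pcna then holds the polymerases on the template, while Rrm1, Rrm2 and Tyms supply nucleotides. Later, cyclins with the kinase Cdk1 start mitosis, motor proteins build the spindle, checkpoint proteins watch over chromosome attachment, and Ect2 with Racgap1 pinches the daughter cells apart. Transcripts of the replication set are classically driven by E2F factors and rise before DNA copying, whereas those of the mitosis set are controlled through CHR and CCAAT elements and peak later, so they mark dividing cells. Chondrocytes of adult articular cartilage divide rarely, and clusters of chondrocytes are a known feature of osteoarthritic cartilage. Marrow and macrophage-lineage cells next to cartilage can also divide.

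The 4 promoters below are shown because they carry these elements in replication and mitosis genes with some of the smallest unadjusted p values between OA and sham at 8 weeks. The sequences came from the RefSeq promoter table of assembly GRCr8, 250 bases before to 50 from the start of the gene, in the direction of transcription. Capitals mark exact matches, on either strand, to an E2F element with the letters TTGGCGC, its variant form spelled TTCGCGC or its other variant form spelled GCGGGAA, to a CHR element with the letters TTTGAA or its variant form spelled TTCGAA, or to the CCAAT box, and overlapping E2F matches run together into 1 stretch. The Mcm6 promoter lies at chr13:42404303-42404602 on the minus strand and that of Mcm2 at chr4:122918045-122918344 on the minus strand. The Top2a promoter lies at chr10:84473044-84473343 on the minus strand and that of Nusap1 at chr3:127057045-127057344 on the plus strand.
Mcm6: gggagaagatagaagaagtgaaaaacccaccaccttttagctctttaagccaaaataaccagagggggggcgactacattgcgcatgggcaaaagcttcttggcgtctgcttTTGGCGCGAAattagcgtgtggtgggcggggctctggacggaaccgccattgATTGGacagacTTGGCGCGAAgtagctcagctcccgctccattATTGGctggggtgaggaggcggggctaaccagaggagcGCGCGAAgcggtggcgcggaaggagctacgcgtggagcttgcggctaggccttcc
Mcm2: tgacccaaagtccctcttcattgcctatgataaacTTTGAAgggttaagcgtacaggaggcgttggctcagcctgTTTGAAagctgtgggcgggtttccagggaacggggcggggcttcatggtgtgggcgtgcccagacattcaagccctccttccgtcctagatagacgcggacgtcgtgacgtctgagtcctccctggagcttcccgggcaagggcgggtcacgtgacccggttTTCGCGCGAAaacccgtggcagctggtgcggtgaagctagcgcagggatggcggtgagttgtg
Top2a: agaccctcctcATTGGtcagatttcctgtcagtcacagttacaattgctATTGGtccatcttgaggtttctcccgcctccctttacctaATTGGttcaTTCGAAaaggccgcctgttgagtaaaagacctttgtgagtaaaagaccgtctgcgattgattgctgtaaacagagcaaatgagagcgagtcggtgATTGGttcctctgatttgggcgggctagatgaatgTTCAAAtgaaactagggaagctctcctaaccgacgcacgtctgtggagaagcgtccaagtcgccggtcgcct
Nusap1: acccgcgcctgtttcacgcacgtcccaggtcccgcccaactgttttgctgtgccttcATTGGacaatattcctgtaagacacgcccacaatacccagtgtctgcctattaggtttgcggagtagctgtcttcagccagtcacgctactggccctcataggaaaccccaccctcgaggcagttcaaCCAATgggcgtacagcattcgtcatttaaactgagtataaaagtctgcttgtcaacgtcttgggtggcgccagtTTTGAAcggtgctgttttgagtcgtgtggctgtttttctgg
In the Mcm6 promoter E2F letters stood at 3 places, beside 2 CCAAT boxes, and in that of Mcm2 at 1 place, from position -13 relative to the start, beside 2 CHR matches. The Top2a promoter held 4 CCAAT boxes and 2 CHR matches and no E2F match, and that of Nusap1 held 2 CCAAT boxes and a CHR match from position 10, inside the transcript. The table held promoters of 8 of the 10 replication genes and of 21 of the 26 mitosis genes, the latter with 23 promoters since some genes had several. An E2F match was found in 87.5% of the replication promoters and 13.0% of the mitosis promoters, against 7.5% of all 33465 promoters in the table. A CHR match was found in 37.5% and 65.2%, against 19.7% of all, and a CCAAT box in 75.0% and 73.9%, against 37.5% of all. CHR and CCAAT box together were found in 25.0% of the replication promoters, 60.9% of the mitosis promoters and 8.0% of all promoters. These matches describe letters in a window and show no binding.

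Chondrocyte markers were bright on every array: 12 of 16 listed markers, among them the cartilage collagen Col2a1 and aggrecan (Acan), were measured, and their mean log2 level per array lay between 13.82 and 14.52. The same RNA also carried markers of other cells. Macrophage markers (16 of 16 measured) had array means of 7.94 to 9.84 in sham and 8.36 to 9.39 in OA at 2 weeks, 7.13 to 9.83 in sham at 8 weeks and 6.21 to 6.34 in OA at 8 weeks. Skeletal muscle markers (17 of 18 measured) had means of 4.92 to 7.76 at 2 weeks, 5.61 to 10.18 in sham at 8 weeks and 9.72 to 14.49 in OA at 8 weeks. The OA array with the muscle value of 14.49, replicate 1 at 8 weeks, also stood apart in its quality probes, with a 3'-minus-5' difference of 0.885 for Gapdh against 1.24 to 1.47 on the other arrays. No label names a batch, and time after surgery cannot be told apart from any difference in processing between the 2-week and 8-week arrays. In whole-tissue RNA, fewer dividing cells and less of these transcripts per cell cannot be told apart.

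Most of the division genes were detected in cartilage. Of the 34 measured, 29 passed the filter on low values, a log2 signal above 4 on at least 3 of the 12 arrays, and were tested, 8 replication and 21 mitosis genes. Mcm3, another MCM subunit, the spindle kinases Aurka and Plk1 and the anaphase activator Cdc20 never exceeded log2 4, and Bub1b, a spindle checkpoint kinase, exceeded it on 1 array. These 5 genes were left out by the filter, and their values are given without a test.

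**Figure D1:**
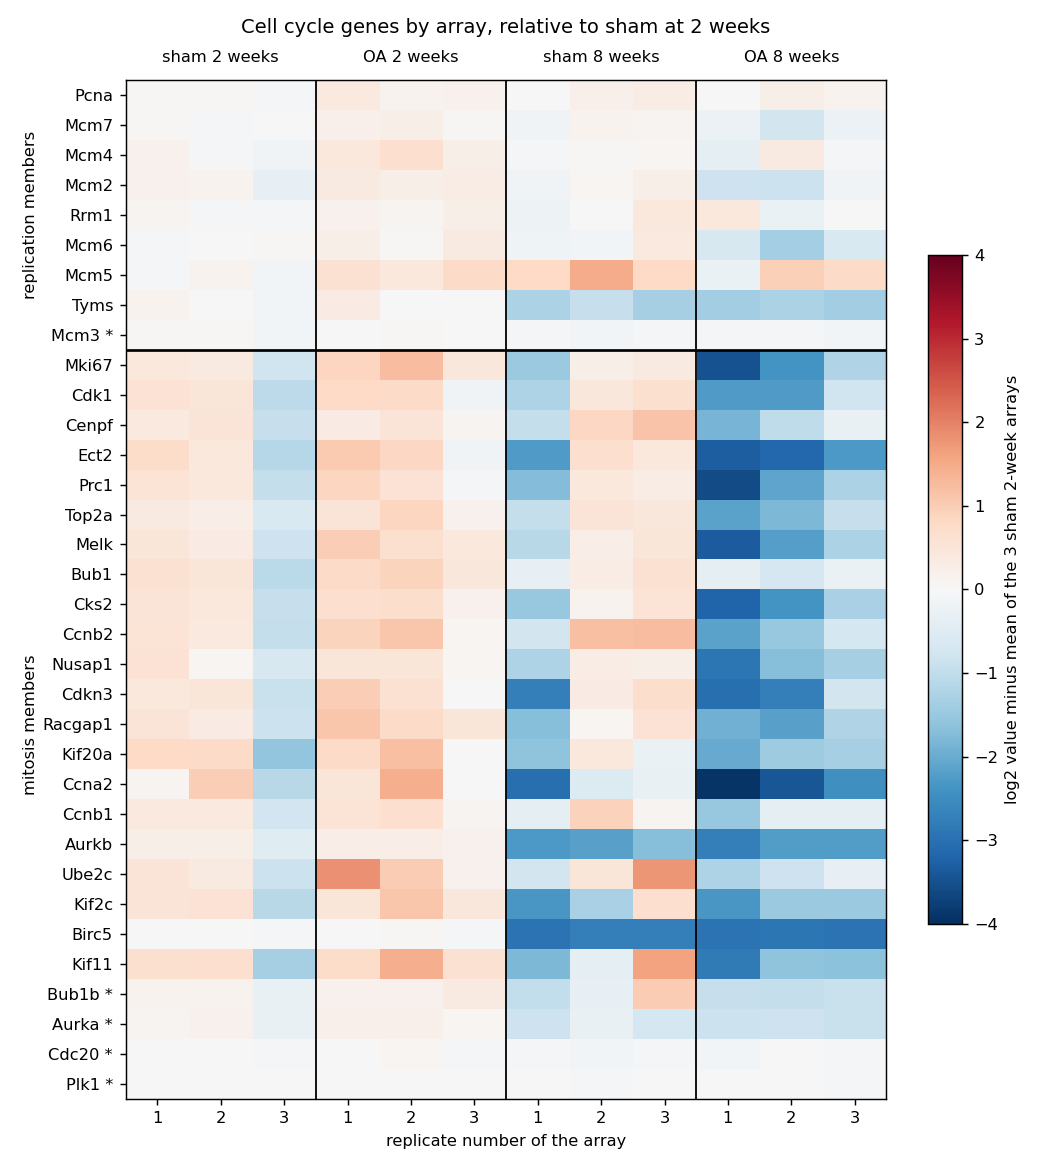
Log2 values of the 34 measured genes (rows, replication above the line, mitosis below, each ordered by mean level) on the 12 arrays (columns), as the difference from the mean of the 3 sham arrays at 2 weeks. An asterisk marks the 5 genes left out by the filter on low values. Most mitosis genes are bluest (lowest) in OA at 8 weeks, and replicate 3 of sham at 2 weeks and replicate 1 of sham at 8 weeks are bluer than the other arrays of their groups.

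The arrays themselves differed much more in the mitosis genes than in the replication genes. Over the 25 measured mitosis genes, the mean log2 level was 7.95, 7.91 and 6.75 on the sham arrays at 2 weeks (replicates 1 to 3) and 8.17, 8.24 and 7.69 on the OA arrays at 2 weeks. At 8 weeks it was 6.14, 7.52 and 7.82 in sham and 5.34, 5.85 and 6.41 in OA. The 3 OA arrays at 8 weeks were thus the lowest but for sham replicate 1, which lay between OA replicates 2 and 3. Sham replicate 3 at 2 weeks was the lowest of the 6 arrays of that time in 21 of the 21 tested mitosis genes. The 9 replication genes had means of 8.47, 8.41 and 8.29 in sham and 8.70, 8.61 and 8.63 in OA at 2 weeks, and of 8.25, 8.48 and 8.495 in sham and 8.02, 8.06 and 8.21 in OA at 8 weeks. For them the 2 groups did not overlap at either time, with OA above sham at 2 weeks and below it at 8 weeks. The median SD within a group of the tested mitosis genes was 0.79 in sham and 0.36 in OA at 2 weeks, and 1.09 in sham and 0.70 in OA at 8 weeks. For the replication genes it was between 0.12 and 0.36, and over all tested genes between 0.15 and 0.18.

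Macrophage markers were low on some of the same arrays. Their mean was 7.94 on sham replicate 3 at 2 weeks against 9.62 and 9.84 on the other sham arrays, and 7.13 on sham replicate 1 at 8 weeks against 9.36 and 9.83. On the OA arrays at 8 weeks it was 6.21, 6.34 and 6.26. Osteoclast markers had a mean of 11.31 on sham replicate 3 at 2 weeks against 10.83 and 10.95 on the other sham arrays. At 8 weeks it was 10.84, 10.91 and 11.13 on sham and 8.30, 9.27 and 9.42 on OA replicates 1 to 3. Osteoblast and osteocyte markers had a mean of 12.23 on sham replicate 3 at 2 weeks against 11.48 and 11.63. Skeletal muscle markers were high on 8-week arrays with low mitosis values. Their mean was 10.18, 5.61 and 7.54 on sham replicates 1 to 3 and 14.49, 11.10 and 9.72 on OA replicates 1 to 3. OA replicate 1, the array with the deviating Gapdh probes, was the lowest of the 6 arrays at 8 weeks in 17 of the 21 tested mitosis genes. The part of macrophage-lineage cells, of bone cells, of muscle and of RNA quality in the mitosis gene values was not tested.

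**Figure D2:**
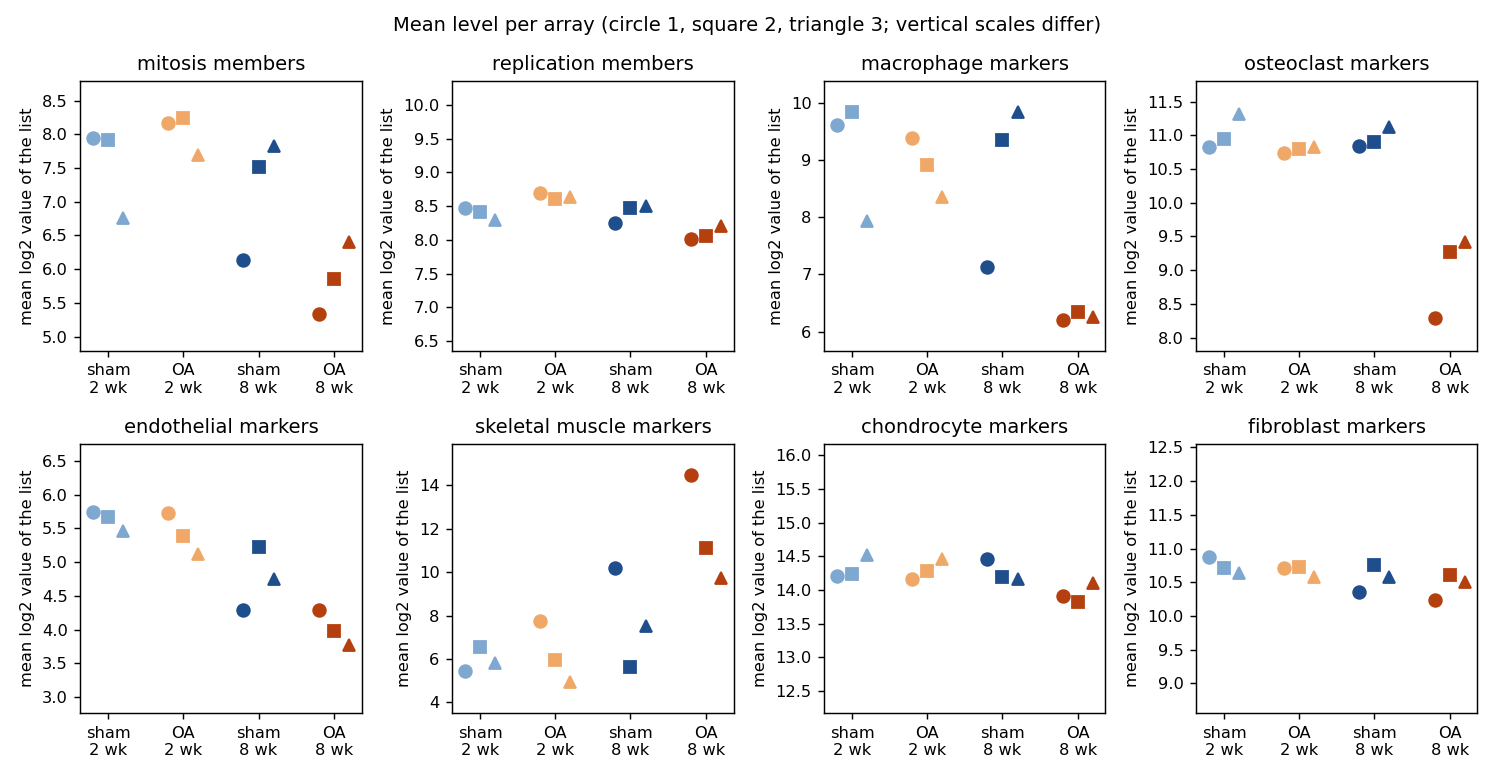
Mean log2 level per array (vertical axis) of the replication genes, the mitosis genes and the marker lists plotted. The 4 groups hold 3 arrays each, each point 1 array, with circle, square and triangle for replicates 1, 2 and 3. Vertical scales differ in position, and those of the macrophage and skeletal muscle lists also in span. The mitosis means span 5.34 to 8.24, the replication means 8.02 to 8.70.

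Whether OA surgery changed these genes early was asked by comparing OA with sham at 2 weeks. The division genes lay slightly higher in OA: 32 of the 34 had a higher mean, with a median log2 difference of 0.21 for the replication genes and 0.52 for the mitosis genes, beside -0.01 over all 14217 genes, of which 36.7% were higher. Without sham replicate 3 at 2 weeks, the low array, 25 of the 34 were higher and the median of the mitosis genes was 0.06. None passed the test. In limma's fit across 15934 probe sets, 0% were called at 2 weeks at a Benjamini-Hochberg adjusted p under 0.05, 0 of the 29 division genes among them, and the smallest adjusted p of a division gene was 1. Only Mcm4 had an unadjusted p under 0.05.

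The 3 OA arrays lay above the 3 sham arrays in 7 of the 34 genes, while 1.36% of all genes did so. Of these 7 genes, 5 were replication genes, namely the helicase subunits Mcm2, Mcm4, Mcm5 and Mcm6 and the clamp Pcna. Mcm4 read 10.56, 10.33 and 10.24 in sham and 10.80, 11.04 and 10.60 in OA, a difference of 0.43 ± 0.18 (SE). Every OA array of Mcm4 was above every sham array, by a small step. Pcna read 13.10, 13.12 and 12.97 in sham and 13.46, 13.22 and 13.25 in OA, a difference of 0.24 ± 0.11 (SE). Mcm5 read 5.97, 6.16 and 5.90 in sham and 6.63, 6.43 and 6.79 in OA, a difference of 0.61 ± 0.30 (SE). For these genes the groups did not overlap, although the adjusted p was 1. Mki67, the proliferation antigen Ki-67 that coats mitotic chromosomes, was a mitosis gene with groups apart by less than the printed digits, at 10.94, 10.86 and 9.70 in sham and 11.37, 11.74 and 10.94 in OA. The other was the dim checkpoint gene Bub1b, at 3.20 to 3.65 in sham and 3.66 to 3.85 in OA.

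Among mitosis genes at 2 weeks the smallest unadjusted p values belonged to Bub1, Ube2c and Racgap1. Bub1, a kinase of the spindle checkpoint, read 9.70, 9.58 and 8.00 in sham and 9.87, 9.9986 and 9.54 in OA. Ube2c, the ubiquitin-conjugating enzyme of the anaphase-promoting complex, read 6.06, 5.90 and 4.67 in sham and 7.37, 6.55 and 5.72 in OA. Racgap1, which organizes the cleavage furrow, read 9.15, 8.95 and 7.79 in sham and 9.74, 9.40 and 9.10 in OA. In each of the 3 genes sham replicate 3 was the lowest array and the groups overlapped, with differences of 0.71 ± 0.41, 1.004 ± 0.64 and 0.78 ± 0.56 (SE). Paired by replicate number, 26 of the 34 genes were higher in OA in all 3 pairs, against 7.89% of all genes. Of 16 macrophage markers, 13 were lower in OA at 2 weeks, with 0 called and a median difference of -0.23, while 63.3% of all genes were lower. Their mean level was 9.62, 9.84 and 7.94 on sham replicates 1 to 3 and 9.39, 8.92 and 8.36 on OA replicates 1 to 3. The part of macrophages in the 2-week differences was not tested.

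At 8 weeks the direction was the opposite. The median difference between OA and sham was -0.19 for the replication genes, a 1.14-fold size, and -1.42 for the mitosis genes, a 2.68-fold size, beside 0.02 over all genes, of which 40.9% were lower. Without sham replicate 2 at 8 weeks the median of the replication genes was -0.07. Of the 34 genes, 31 had a lower mean in OA, and 28 to 31 did with 1 array of that time left out. Without pairing, 1 of the 29 tested genes passed the test, the helicase subunit Mcm6. This is a share near that of all probe sets, of which 3.46% were called and 1.95% were called lower. Among the 21 tested mitosis genes 0 passed, 13 had an unadjusted p under 0.05, and the smallest adjusted p, that of Melk, was 0.0737.

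**Figure D3:**
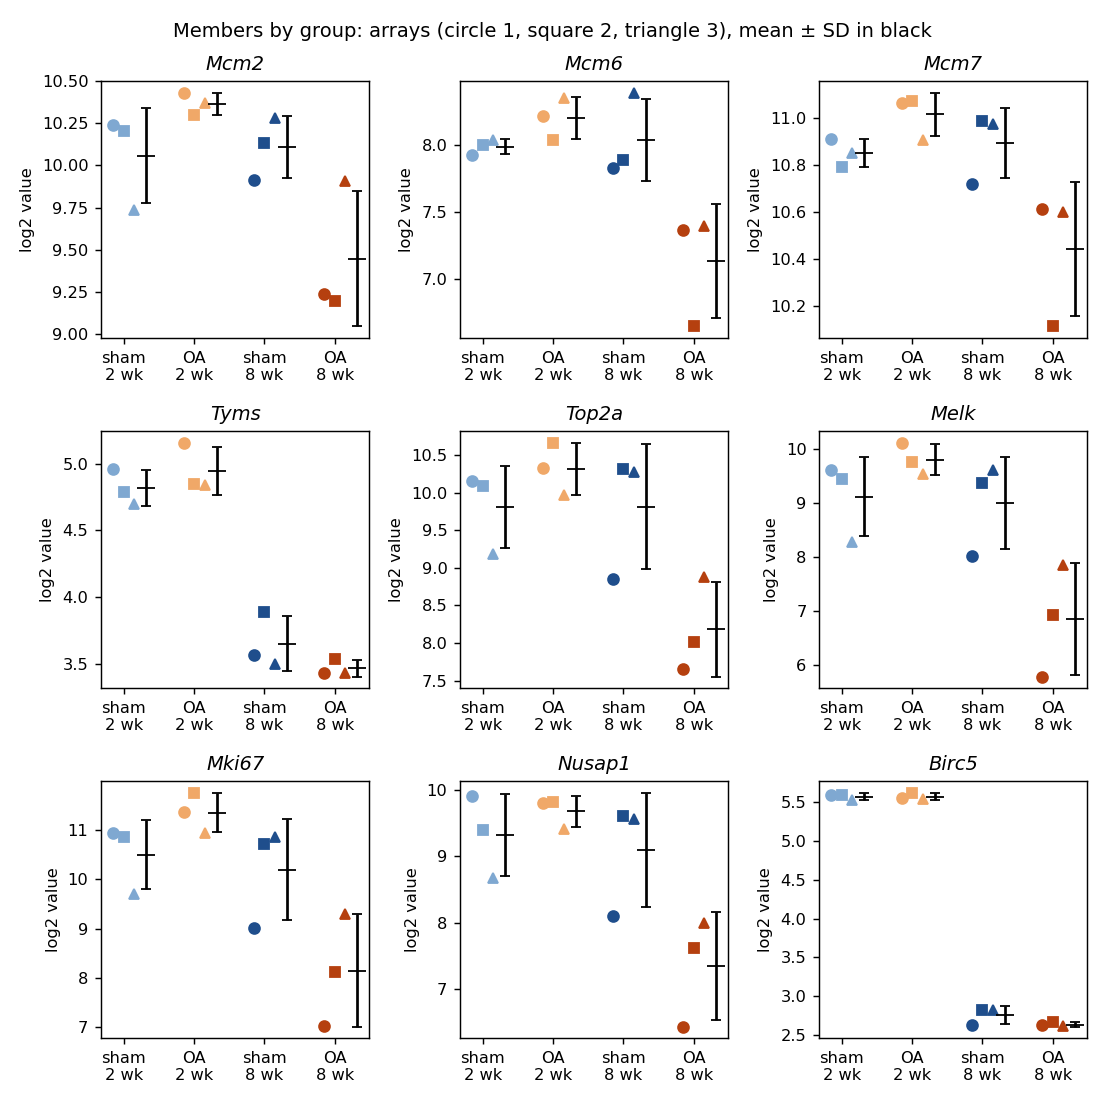
Log2 values (vertical axes) of Mcm2, Mcm6, Mcm7, Tyms, Top2a, Melk, Mki67, Nusap1 and Birc5 on each of the 12 arrays, in the 4 groups, points being arrays and bars the mean of 3 with its SD. At 8 weeks the 3 OA arrays of Mcm6 (6.65 to 7.39) lie below the 3 sham arrays (7.83 to 8.39).

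Among the replication genes, only helicase subunits had groups that stood apart at 8 weeks. Mcm6 read 7.83, 7.89 and 8.39 in sham and 7.36, 6.65 and 7.39 in OA. No OA array reached a sham array, and the mean was 8.04 ± 0.31 in sham and 7.13 ± 0.42 in OA (SD, n = 3). Mcm6 fell by 0.90 on the log2 scale (SE 0.21), 1.87-fold, with an adjusted p of 0.0483 in limma. The call was kept in 9 of 22 other settings, in which its adjusted p ranged from 0.0188 to 0.207, and the gene was lower in all of them. It was lost, among others, without OA replicate 1 (adjusted p 0.0577) or OA replicate 2 (0.0978) and without sham replicate 2 (0.107) or sham replicate 3 (0.169).

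Mcm2, another helicase subunit, read 9.91, 10.13 and 10.28 in sham and 9.24, 9.19 and 9.91 in OA at 8 weeks. The groups touched at 9.91 to the printed digits without crossing, and the difference was -0.66 ± 0.20 (SE, adjusted p 0.105). Mcm7 read 10.72, 10.99 and 10.98 in sham and 10.61, 10.11 and 10.60 in OA, again without overlap, a difference of -0.45 ± 0.14 (SE, adjusted p 0.109). The other replication genes overlapped. Mcm5 differed by -0.54 ± 0.30, with 1 OA array at 5.73 and the others at 6.95 and 6.79. Differences of Mcm4, Pcna and Rrm1, the large subunit of ribonucleotide reductase, lay between -0.05 and -0.03, with SEs of 0.11 to 0.19. Tyms, thymidylate synthase, was dim and differed by -0.19 ± 0.13. So at 8 weeks 3 of the 5 tested MCM subunits had separated groups, whereas the clamp and the nucleotide enzymes had overlapping values.

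Of the mitosis genes, those of entry into mitosis had some of the widest differences at 8 weeks. Melk, a kinase expressed in dividing and progenitor cells, read 8.02, 9.37 and 9.60 in sham and 5.79, 6.92 and 7.86 in OA. The OA arrays spanned about as much as the groups differed, yet none reached the lowest sham array, and the difference was -2.14 ± 0.57 (SE), a 4.42-fold size. Ccna2, the cyclin A of S phase and early mitosis, read 5.40, 7.85 and 8.12 in sham and 4.49, 4.98 and 5.96 in OA. Here sham replicate 1 lay among the OA arrays, and the difference was -1.98 ± 0.77 (adjusted p 0.179). Cdk1, the kinase that drives mitosis, its cyclins Ccnb1 and Ccnb2 and its small partner Cks2 differed by -1.73 ± 0.63, -0.97 ± 0.44, -2.03 ± 0.61 and -2.03 ± 0.62. Cdkn3, a phosphatase that acts on cyclin-dependent kinases, differed by -1.59 ± 0.89. None of these 7 genes passed the test without pairing, with adjusted p values of 0.0737 to 0.337.

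Genes of chromosome structure and of the spindle had differences from -2.05 for Mki67 to -0.78 for Kif2c at 8 weeks, and none passed the test without pairing. Top2a, the topoisomerase that disentangles sister chromatids, read 8.86, 10.32 and 10.27 in sham and 7.66, 8.01 and 8.88 in OA at 8 weeks. Sham replicate 1 and OA replicate 3 were nearly level, so the groups crossed slightly, and the difference was -1.63 ± 0.45 (SE), a 3.10-fold size. The adjusted p of Top2a was 0.0804. Mki67 read 9.01, 10.72 and 10.86 in sham and 7.02, 8.12 and 9.30 in OA, a difference of -2.05 ± 0.64 (SE, adjusted p 0.11). The centromere protein gene Cenpf differed by -1.39 ± 0.59. Nusap1, which bundles spindle microtubules, read 8.11, 9.61 and 9.57 in sham and 6.43, 7.61 and 8.00 in OA. Its groups did not overlap, and the difference was -1.75 ± 0.50 (SE, adjusted p 0.0882). The motor Kif11, which pushes spindle poles apart, read 2.55, 3.99 and 5.99 in sham and 1.53, 2.75 and 2.72 in OA, and the microtubule-depolymerizing motor Kif2c 3.01, 4.06 and 6.01 in sham and 3.02, 3.87 and 3.85 in OA. Sham replicate 3 stood well above the other sham arrays of these dim motor genes, and the differences were -1.84 ± 0.82 and -0.78 ± 0.70. Kif20a, a motor of the central spindle, and Prc1, which crosslinks it, differed by -1.11 ± 0.68 and -1.99 ± 0.71.

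The cytokinesis gene Ect2, which activates the contractile ring, had the widest difference of all 34 genes at 8 weeks. It read 7.55, 10.50 and 10.27 in sham and 6.54, 6.71 and 7.52 in OA, a difference of -2.52 ± 0.77 (SE), a 5.72-fold size, with an adjusted p of 0.105. The groups were barely apart, since sham replicate 1 was nearly level with OA replicate 3. Racgap1, its partner, read 6.94, 8.71 and 9.20 in sham and 6.70, 6.47 and 7.43 in OA, with overlap, a difference of -1.42 ± 0.56.

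Birc5 and Aurkb belong to the chromosomal passenger complex, which corrects chromosome attachment, and both were dim at 8 weeks. Birc5, survivin, read 2.63, 2.82 and 2.83 in sham and 2.63, 2.67 and 2.62 in OA, under the filter level of log2 4 on all 6 arrays. Aurkb, the kinase of that complex, read 4.04, 4.18 and 4.65 in sham and 3.63, 4.12 and 4.11 in OA. Their differences were -0.13 ± 0.08 and -0.34 ± 0.23, with overlapping groups, at levels too low to read a size from. The checkpoint kinase Bub1 and the ubiquitin enzyme Ube2c differed by -0.61 ± 0.41 and -1.30 ± 0.64. Of the untested dim genes, Aurka read 2.48 to 3.03 in sham and 2.44 to 2.48 in OA, Bub1b 2.51 to 4.51 and 2.53 to 2.61, and Mcm3, Cdc20 and Plk1 differed by 0.02, 0.02 and 0.01.

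The 3 OA arrays lay below the 3 sham arrays at 8 weeks in 7 of the 34 genes (Mcm2, Mcm6, Mcm7, Melk, Nusap1, Ect2 and Aurka), while 10.4% of all genes did so. Read within same-numbered pairs, the picture was more uniform. In 26 of the 34 genes, 5 of 9 replication and 21 of 25 mitosis genes, OA was lower than sham in all 3 pairs, against 19.3% of all genes. Melk, for example, differed by -2.24, -2.45 and -1.75 in pairs 1 to 3, Nusap1 by -1.67, -1.999 and -1.57, and Top2a by -1.20, -2.31 and -1.39. For Melk and Nusap1 the pair differences lay closer together than the arrays of either group. This did not hold for every gene. The pair differences of Ect2 (-1.01, -3.79 and -2.74) and Racgap1 (-0.24, -2.24 and -1.78) lay further apart than their OA arrays. Same-numbered OA and sham arrays of a time deviated together over the tested probe sets, with r of 0.119 to 0.239 at 8 weeks. OA replicate 3 at 8 weeks, however, correlated more with sham replicate 2 (0.142) than with its own number (0.119). No label names what a number shares. The fit with the number within each time as a block is therefore given only beside the unpaired one. In that fit 13 of the 29 tested genes fell in OA at 8 weeks, Mcm6 and 12 mitosis genes, while 6.51% of all probe sets were called and 3.43% were called lower. The 12 were Top2a, Melk, Cdk1, Ccna2, Ccnb1, Ccnb2, Mki67, Nusap1, Prc1, Cenpf, Ect2 and Cks2. Nusap1 and Melk had adjusted p values of 0.00967 and 0.0098 with the pairing, Mki67 0.0122, Top2a 0.0218, Mcm6 0.0319 and Ccna2 0.0354.

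The unpaired count also moved when single arrays were left out. Without sham replicate 1 at 8 weeks, 12 of 29 genes were called lower at a background of 3.6% called lower, and the median difference of the mitosis genes was -2.09 in place of -1.42. Without OA replicate 3 at 8 weeks, 3 were called at a background of 2.22% called lower, and without any other single array the count was 0. With array weights, which count deviating arrays less, 9 were called lower at a background of 5.17%.

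**Figure D4:**
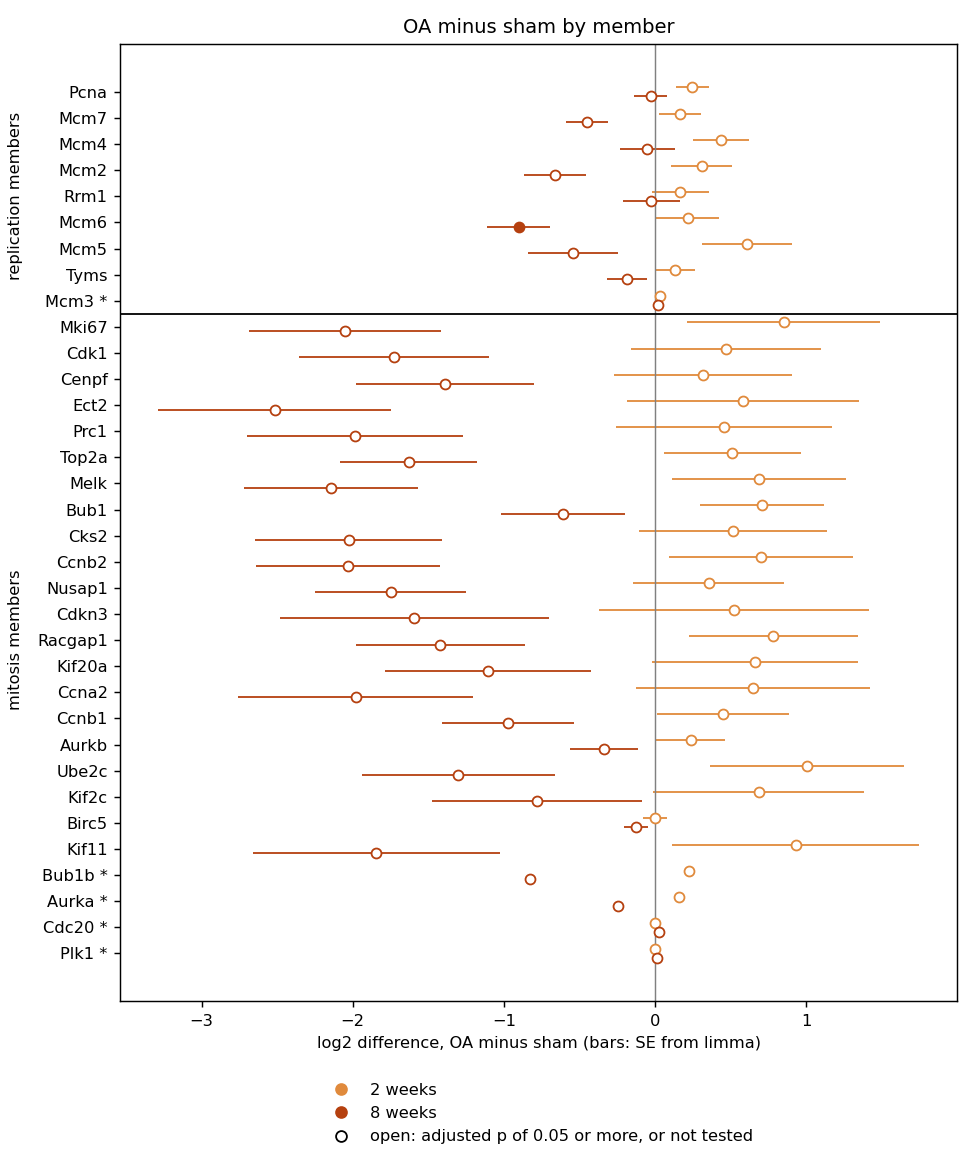
Log2 difference between OA and sham (horizontal axis, bars the SE from limma) at 2 weeks and at 8 weeks for each of the 34 genes, with filled points for an adjusted p under 0.05 without pairing and an asterisk for the 5 untested genes. At 2 weeks the points lie between -0.0037 and 1.004, and at 8 weeks between -2.52 and 0.02.

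Some marker lists of other cells, but not all, differed in OA at 8 weeks beside the division genes. Over all genes 40.9% were lower and 59.1% higher, and 1.95% of all probe sets were called lower. Of 16 macrophage markers 16 were lower, and 4 of the 15 tested were called, Cd68, Laptm5, Csf1r and Cd74, with a median difference of -2.41 over the list. The summed linear signal of the macrophage list was 16616 to 58595 in sham and 14148 to 22444 in OA, and 0 of its markers stayed under log2 4 throughout. Osteoclast markers (6 of 10 measured) were lower in 6 of 6, with 5 of 5 tested called, among them Ctsk and Acp5, and with Calcr never above log2 4. Their sum was 57384 to 75567 in sham and 12042 to 22411 in OA. Skeletal muscle markers were higher in 16 of 17, with 0 called of 15 and sums of 40403 to 87605 in sham and 74809 to 539919 in OA. Erythroid and marrow markers (9 of 20 measured) were lower in 4 of 9, with 0 called of 4, sums of 7224 to 15001 in sham and 2122 to 6600 in OA, and Gata1, Klf1, Epor and Cd79b never above log2 4. Osteoblast and osteocyte markers were lower in 8 of 10 (Phex and Dmp1 called of 9 tested), and endothelial markers in 9 of 11 with 0 called of 7. Fibroblast markers were lower in 4 of 10 (Fap called of 8 tested). The shares of lower erythroid and fibroblast markers were near that of all genes. Chondrocyte markers had a median of -0.17, and 3 of 12 were called lower, the collagen IX chains Col9a1, Col9a2 and Col9a3. The part of these cell types in the division gene values was not tested.

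The change of the OA effect between the times was asked by a test of the difference itself. Over the 34 genes, 31 were higher in OA at 2 weeks and lower at 8 weeks by the sign of the mean, as were 17.1% of all genes, and Mcm2 and Mcm6 had separated groups in opposite directions at the 2 times, as did 0.218% of all genes. The 2 comparisons share no array, although they share the estimate of the spread. The change had a median of -0.49 for the replication genes and -2.11 for the mitosis genes, beside 0.03 over all genes. Without pairing 0 of 29 genes passed the test of the change, at a background of 0.138%, 19 had an unadjusted p under 0.05, and the smallest adjusted p was that of Mcm6, 0.216, for a change of -1.12 ± 0.30 (SE). With the number within each time as a block, 3 passed, at a background of 0.42%: Melk with a change of -2.83 (adjusted p 0.036), Mki67 with -2.90 (0.0367) and Nusap1 with -2.10 (0.0409).

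Time after surgery was compared within sham and within OA, setting the 8-week arrays against the 2-week arrays of the same operation. These comparisons share their arrays with those above, so each is given by its own values. Within OA, all 34 measured genes were lower at 8 weeks, with a median difference of -0.47 for the replication genes and -2.33 for the mitosis genes, a 5.02-fold size, beside 0.01 over all genes. Of the 29 tested, 21 fell and 0 rose, while 34.1% of all probe sets were called and 12.4% were called lower. In 28 of the 34 the 3 later arrays lay below the 3 earlier ones, as in 17.8% of all genes. The 21 were 4 replication genes (Mcm2, Mcm6, Mcm7 and Tyms) and 17 mitosis genes. Of these, Birc5 and Tyms passed the filter on low values through the 2-week arrays alone, so they had to differ between the times. Kif11 (1.53 to 2.75) and Kif2c (3.02 to 3.87) also lay under log2 4 on the OA arrays at 8 weeks. The mitosis genes not called within OA were Ccnb1, Bub1, Ube2c and Cenpf, with differences of -1.20, -1.13, -1.80 and -1.36 and adjusted p values of 0.053 to 0.102.

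Within OA the widest difference was that of Ccna2, whose values of 8.88, 9.85 and 8.42 at 2 weeks stood against 4.49, 4.98 and 5.96 at 8 weeks. It fell by 3.91 on the log2 scale (SE 0.77), 15.05-fold, with an adjusted p of 0.00315. Ect2 went from 10.88, 10.67 and 9.69 to 6.54, 6.71 and 7.52, and fell by 3.49 (SE 0.77). Mki67 fell by 3.20 (SE 0.64, adjusted p 0.00324) and Melk by 2.95 (SE 0.57, adjusted p 0.00285). In none of these 4 genes did an array at 8 weeks reach an array at 2 weeks. Mcm6, at 8.22, 8.04 and 8.35 and later 7.36, 6.65 and 7.39, fell by 1.07 (SE 0.21, adjusted p 0.00304). Mcm2 and Mcm7 fell by 0.92 and 0.57, and the clamp Pcna differed by -0.11 ± 0.11 (adjusted p 0.473). Beside these genes, 10 of 15 tested macrophage and 5 of 5 osteoclast markers were called lower and 9 of 15 skeletal muscle markers higher within OA over time. Over all probe sets 34.1% were called in either direction and 12.4% were called lower. Called lower in the same comparison were also 4 of 4 tested erythroid and marrow markers, 5 of 7 endothelial, 5 of 9 osteoblast and osteocyte, 2 of 8 fibroblast (1 called higher) and 4 of 12 chondrocyte markers. The part of these cell types in the result was not tested.

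**Figure D5:**
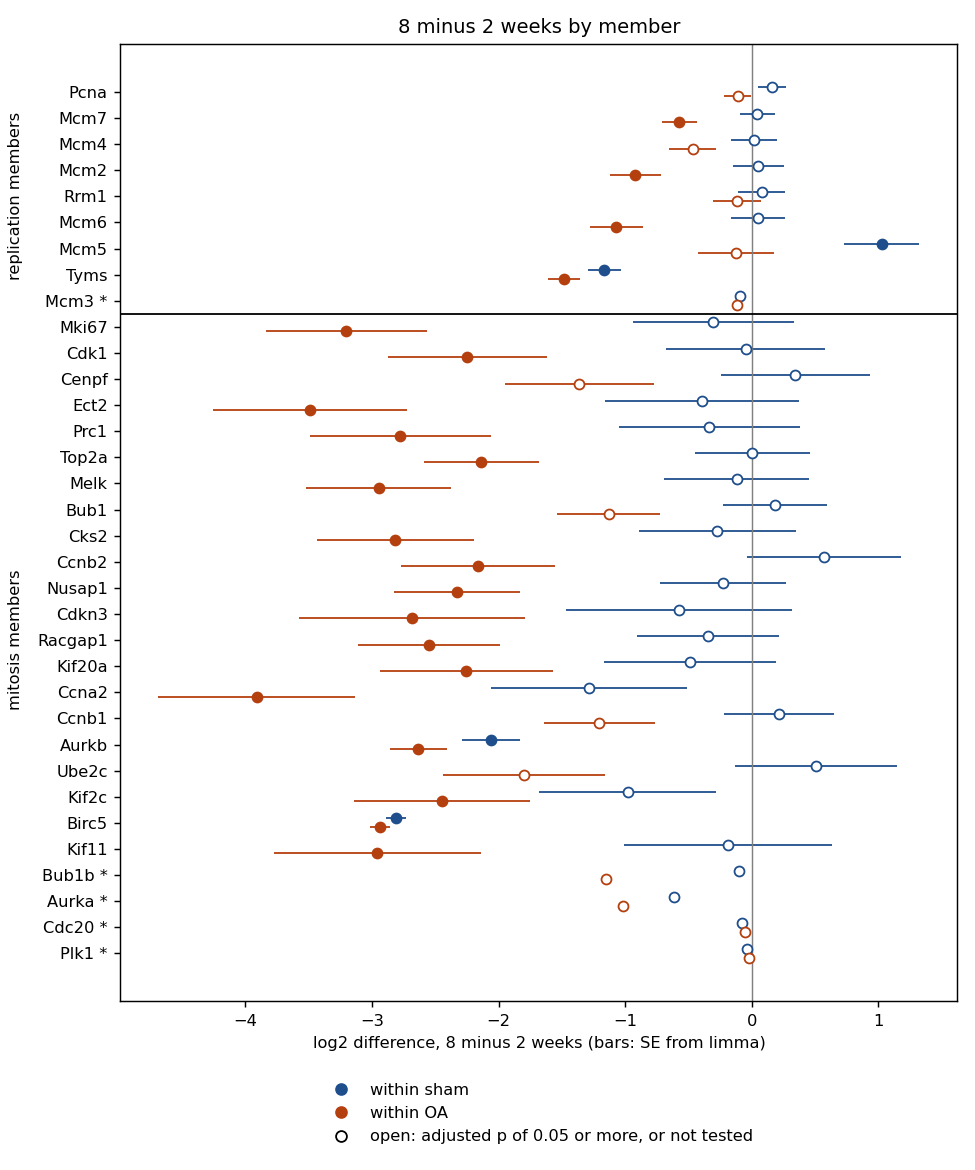
Log2 difference between 8 and 2 weeks (horizontal axis, bars the SE from limma) within sham and within OA for each of the 34 genes, filled where the adjusted p was under 0.05, with an asterisk for the 5 untested genes. Within OA every point lies below 0, down to -3.91, while within sham Birc5 (-2.81) and Aurkb (-2.06) lie apart from the other mitosis genes.

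Within sham, 3 division genes fell with time and 1 rose. The medians were 0.05 for the replication genes and -0.23 for the mitosis genes, beside 0.01 over all genes, and 4 of 29 genes were called, while 18.7% of all probe sets were called, 6.24% lower and 12.5% higher. The sign of both medians turned with the setting: that of the replication genes was -0.12 with equal array medians, and that of the mitosis genes was 0.34 without sham replicate 1 at 8 weeks. Birc5 read 5.59, 5.59 and 5.52 at 2 weeks and 2.63, 2.82 and 2.83 at 8 weeks, a difference of -2.81 in the deposited values (adjusted p 5.91e-09). Aurkb fell by 2.06 (SE 0.23, adjusted p 7.2e-05), from 6.60, 6.58 and 5.87 to 4.04, 4.18 and 4.65. Tyms, at 4.96, 4.79 and 4.70 and later 3.57, 3.88 and 3.50, differed by -1.17 (adjusted p 7.59e-05). In OA the differences of Birc5, Aurkb and Tyms were -2.93, -2.63 and -1.48, all called. Birc5 and Tyms lay under log2 4 on all 6 arrays at 8 weeks and passed the filter on low values through the 2-week arrays alone, so they had to differ between the times, and the sizes of their differences rest on signals under that level. Mcm5 was the sole division gene that rose within sham, by 1.02 (SE 0.30, adjusted p 0.0374), from 5.97, 6.16 and 5.90 to 6.81, 7.48 and 6.81. Its call was lost with quantile normalization (adjusted p 0.152) with equal array medians (0.0953) and when any of 8 of the 12 arrays was left out. Of the marker lists, 2 of 7 tested endothelial genes, Plvap (-3.12) and Egfl7 (-1.47), were called lower within sham. So were 1 of 15 macrophage genes (Csf1r, -1.91), 1 of 4 erythroid and marrow genes (Slc4a1, -0.76) and 1 of 8 fibroblast genes (Tnmd, -1.71). Of 15 tested muscle genes 1 was called higher (Atp2a1, 5.59). For macrophage and muscle markers these shares were near or below those of all probe sets. Osteoclast, osteoblast and osteocyte, and chondrocyte markers had 0 called. The part of those cell types in the result was not tested.

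The other genes of the pathway, from lists of 36 further replication genes, 48 further mitosis genes and 34 genes of the G1 phase, were read in the same way. At 2 weeks 0 genes of the 3 lists were called. At 8 weeks 0 of 26 tested further replication genes and 0 of 31 tested further mitosis genes were called, with 7 and 15 at an unadjusted p under 0.05 and medians of -0.08 and -0.38. The smallest p values belonged to Gins1 and Pole2, of the helicase and of a replicative polymerase, with differences of -0.58 ± 0.20 and -1.05 ± 0.38, and to the microtubule regulator Stmn1 and the centriole kinase Plk4, with -1.49 ± 0.38 and -1.61 ± 0.45. Of 24 tested G1 genes 2 fell in OA and 0 rose, where 1.95% of all probe sets were called lower. Cdkn1c, the cyclin-dependent kinase inhibitor p57, read 13.82, 14.33 and 14.13 in sham and 12.69, 13.35 and 12.86 in OA, and fell by 1.12 (SE 0.18, adjusted p 0.0126). Ccnd3, a D-type cyclin that starts the cycle, read 8.84, 8.80 and 8.74 in sham and 7.67, 8.01 and 8.35 in OA, and fell by 0.78 (SE 0.14, adjusted p 0.019). Both had groups that did not overlap, and 1 of them is a brake and the other a starter of the cycle.

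Within OA over time, 34.1% of all probe sets were called and 12.4% were called lower, so more were called higher than lower. There 14 of 26 tested further replication genes fell and 1 rose (Dnmt1, the maintenance DNA methyltransferase, by 0.54). The falls were led by the polymerase subunit Pold1, which fell by 1.08, the clamp loader Rfc5, the helicase subunit Gins3 and Uhrf1. Of 31 tested further mitosis genes 22 fell and 1 rose (Cdca8, by 1.28), led by the lamin Lmnb1, the condensin subunit Ncaph, which fell by 3.65, securin (Pttg1) and the kinetochore subunit Spc24. Of 24 tested G1 genes 5 fell, among them Cdkn1c by 1.36, Ccnd3 by 0.95, the transcription factor E2f1 by 1.06 and the pocket protein Rbl1 by 0.67. Another 2 rose, the retinoblastoma gene Rb1 by 0.9996 and the p53 regulator Mdm2 by 0.43. In each of these lists the rises within OA made up a smaller share than over all probe sets. Within sham, where 6.24% of all probe sets were called lower and 12.5% higher, 7 of the 26 further replication genes fell (Pold1, Rfc5, Tk1 and Gins3 with the smallest p) and 3 rose (Mcm10, Dnmt1 and Lig1). There 7 of the 31 further mitosis genes fell (Lmnb1, Pttg1, Incenp and Ncaph with the smallest p) and 1 rose (Cdca8). In both of these lists the falls made up a larger share than over all probe sets, and the rises did not. Of the 24 G1 genes 2 fell (E2f1 and Cdk2) and 1 rose (Rb1), shares near or below those of all probe sets. Among the genes that passed the test after either operation were Pold1, Rfc5, Lmnb1 and Rb1. Their differences were -1.05 and -1.08, -0.93 and -1.01, -1.28 and -1.26, and 0.82 and 0.9996 in sham and OA. Gins3, Ncaph, Pttg1 and E2f1 also fell, and Dnmt1 and Cdca8 also rose, after either operation.

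Finally, deviations from the group means were set side by side, to see which genes varied together among arrays of a group. Over the 12 arrays the median correlation between pairs of tested mitosis genes was 0.843, between pairs of replication genes 0.201 and between the 2 sets 0.389, beside 0.088 between pairs of all 9244 tested genes. These values are a description, since all pairs share the same arrays. Ccnb2 and Top2a varied most closely with the other mitosis genes (median 0.937 and 0.926) and Birc5 least (0.734). Of the replication genes, Mcm2 and Pcna varied most with the mitosis genes, with medians of 0.723 and 0.707.

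Of the 34 genes, 7 had several probe sets. The other Top2a probe set, itself tested, differed by -1.71 ± 0.51 between OA and sham at 8 weeks, against -1.63 ± 0.45 for the chosen one, and that of Ccnb1 by -1.71 ± 0.74 against -0.97 ± 0.44. For Nusap1, Kif11 and Kif2c the chosen probe set fell within OA over time, while another, with group means between 2.06 and 4.16 and left out by the filter, differed by 0.40, 0.14 and 0.05.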

How the data were processed

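Total RNA of rat knee cartilage was measured on 12 Affymetrix arrays, 3 in each of 4 groups. The deposited values are log2 signals made by the authors with GCRMA, a background correction and normalization of probe intensities, per the submitters' processing notes; its version is not given in the sources used here. How this processing affects differences of dim genes was not tested. Of 31099 probe sets, 57 controls and 15108 probe sets that were not above log2 4 on at least 3 arrays were left out, and 15934 were tested with limma 3.58.1 in R 4.3.3, with 1 mean per group and Benjamini-Hochberg adjustment over all of them at 0.05. A gene was read from the probe set with the highest mean among those with its symbol alone, in GEO's platform annotation (20826 probe sets had 1 symbol).

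The genes and lists, including those of markers of other cell types, were chosen with earlier results of these data known. Values on every array are given for the genes with the smallest p in each comparison, for called genes up to a fixed number and for those whose probe sets disagree in sign; other genes were added after their values were seen. Same-numbered OA and sham arrays of a time deviated together from their group means (r = 0.333, 0.360 and 0.527 at 2 weeks and 0.239, 0.237 and 0.119 at 8 weeks), so the number was treated as pairing within a time, from the data and not from a label that names what is shared. Across times it was not: 3 of 12 same-numbered pairs exceeded 0.1, over a range of -0.50 to 0.24. Set against all arrays of the other groups, 5 of the 12 arrays correlated best with an array of their own number. Alternatives covered the filter, the scaling, array weights, the variance prior, the block, the arrays fitted, the probe set rule and each array left out. Tables and figures used Python 3.11.15 with pandas 2.3.3, numpy 2.4.6 and matplotlib 3.10.9.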

Additional observations from a re-analysis of the deposited data

How the results depend on the processing

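The count of genes called lower in OA at 8 weeks, 1 without pairing, depended most on the setting: it was 0 without the filter on low values, 0 with equal array medians, 0 with only the groups compared in the fit, 9 with array weights, 13 with the replicate block within each time and 0 to 12 with 1 array left out. With 1 replicate block over both times the counts were 1 at 8 weeks, 0 at 2 weeks, 0 for the change of the OA effect, 4 within sham and 21 within OA, the same counts as without it. Pairing by number within each time gave 3 calls for the change of the OA effect in place of 0, and differences between the times could not be estimated in that fit. At 2 weeks the count was 0 in every setting run. A filter at log2 6 left 1 of 4 calls within sham. The count within OA, 21, lay between 15 and 24 with 1 array left out. The median of the replication genes within sham, 0.05, turned to -0.0095 with added quantile normalization and to -0.12 with equal array medians, and lay between -0.035 and 0.15 with 1 array left out. That of the mitosis genes within sham, -0.23, lay between -0.70 and 0.34 with 1 array left out, the latter without sham replicate 1 at 8 weeks. Within OA the median of the replication genes, -0.47, was -0.65 with equal array medians and -0.57 to -0.30 with 1 array left out. Equal medians shifted the median of all genes over time by -0.17 within sham and -0.18 within OA. With 1 array left out, the median difference at 8 weeks lay between -0.26 and -0.0692 for the replication genes and between -2.09 and -0.99 for the mitosis genes, that at 2 weeks between 0.06 and 0.78 for the mitosis genes, and the median change of the OA effect for the replication genes lay between -0.59 and -0.37. A group left with 2 arrays is assumed to vary like the others. Over the 29 tested genes, the comparisons and these settings, 60 calls were gained and 52 lost, 2966 results kept their side of the threshold, and 0 called differences changed sign. The causes of these differences were not tested. Signals near the bottom of the scale, as for Birc5, Tyms, Kif11 and the 5 untested genes, limit what can be read from them.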
